A study of Mus musculus with 6 samples.

Results

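Genes of secreted and membrane-bound metalloproteinases and of their tissue inhibitors were examined in subcutaneous adipose tissue of mitoNEET transgenic and wild type mice. The members were all genes whose symbol on the array platform starts with Mmp, Adam, Adamts, Adamtsl or Timp followed by a digit. This gave 78 genes on 154 probes, out of 19057 named genes on 45281 probes. There were 21 Mmp, 4 Timp, 32 Adam, 17 Adamts and 4 Adamtsl genes. A probe counted as above background when its intensity exceeded 55.4 on at least 3 of the 6 arrays, and each gene was represented by the brightest such probe. By this rule 43 members were measured, namely 14 Mmp, 4 Timp, 13 Adam, 9 Adamts and 3 Adamtsl genes, of which 33 were above background on all 6 arrays. The data were Illumina bead array intensities from 3 mitoNEET transgenic and 3 wild type samples, all from male FVB mice aged 12 weeks. The transgene product, mitoNEET, binds an iron-sulfur cluster at the surface of mitochondria, and its endogenous gene is Cisd1. The sample descriptions of both groups carry the tag aP2, which is also a name of the fatty acid binding protein gene whose promoter is often used to drive transgenes in adipocytes, but the labels do not say which promoter drives the transgene here. The labels do not say that each array came from a separate mouse, so the p-values reflect how these particular samples spread, which may be technical.

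Matrix metalloproteinases (MMPs) cleave collagens, basement membrane proteins and many other extracellular proteins. ADAM proteases are membrane-anchored and release the outer parts of cell surface proteins, although several ADAM genes encode proteins without protease activity. ADAMTS proteases are secreted and cut proteoglycans, procollagens and other matrix proteins, and the ADAMTS-like proteins resemble them but lack the protease domain. The TIMPs are small secreted proteins that block MMPs and, in the case of TIMP3, also ADAM and ADAMTS proteases. In adipose tissue these proteins are known for remodelling the matrix around adipocytes as the fat pad grows.

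The arrays were close to each other in overall profile, with pairwise correlations of log2 intensity between 0.9698 and 0.9947 and a median intensity of 54.8 on each. The Cisd1 probe read 1091, 1106 and 1060.2 in transgenic tissue and 1035, 773 and 937 in wild type tissue, without overlap but not past the threshold (log2 difference 0.26, SE 0.11, limma adjusted p = 0.163). Whether this probe reads the transgene's transcript is not known, so these arrays do not check the genotype labels. Adipocyte markers were measured for 7 of 7 genes and were bright in both groups, with summed intensities of 37134 to 39759 in transgenic tissue and 25084 to 30952 in wild type tissue, and 5 of them rose. Markers of T and NK cells were lower, with sums over 8 of 9 genes of 916 to 3824 in transgenic tissue and 6694 to 13131 in wild type tissue, and all 8 fell. B and plasma cell markers summed to 336 to 742 in transgenic tissue and 1751 to 2919 in wild type tissue over 4 of 7 genes, and all 4 fell, while Jchain was near background. Wild type array 2 also carried the highest skeletal muscle signal, with 4 of 6 marker genes summing to 14525, against 3338 to 4317 on the transgenic arrays and 2838 and 3767 on the other wild type arrays; Myh1 and Myh4 were near background. In such bulk samples fewer cells of a type and less RNA per cell cannot be told apart.

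Of the 43 measured members 6 passed an adjusted p of 0.05 in limma, with Timp4, Timp3, Adamts9 and Adamts1 higher and Adam23 and Mmp25 lower in transgenic tissue. Over all 15080 features tested, 13.2% were called, 5.04% higher and 8.19% lower, so the number of member genes called lay near the background share. Mmp25 was above background on no transgenic array and was kept through the wild type arrays alone, so it had to differ, and its call carries no weight here. Among the other 42 members 5 were called, 4 higher and 1 lower. Of the 1995 calls over all features 38.1% were higher. With each array centred on its median the share was 48.8% of 2132 calls. With a background level subtracted it was 5.88% of only 17 calls. The groups did not overlap for 16 members, 11 with the transgenic arrays above and 5 below, where 35.7% of all features did not overlap (18.4% above and 17.3% below). The 5 below include Mmp25, whose separation was fixed by the filter. The median log2 difference (transgenic minus wild type) was 0.062 over the members and 0.025 over all features.

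By family, 2 of 4 measured Timp genes rose and the median log2 difference was 0.39. Of the 9 Adamts genes 2 rose and none fell, 7 had positive differences, and the median was 0.10. Of the 14 Mmp genes the only call was that of Mmp25. Of the other 13 none passed in limma and 5 had an unadjusted p under 0.05. Such a p was found for 18 of all 43 members and for 4719 of all 15080 features. The 14 Mmp genes had 7 positive and 7 negative differences and a median of 0.020. Of the 13 Adam genes 1 fell and none rose, with 8 positive and 5 negative differences and a median of 0.015. None of the 3 Adamtsl genes passed in limma or had an unadjusted p under 0.05, and their median was 0.15. Differences between families were not tested. The calls rested on few arrays, for the members as for all features. Without transgenic array 2 or wild type array 2 no member passed in limma, and 0 and 307 features passed. In these fits 10 and 8 members had an unadjusted p under 0.05, as did 3599 of 14682 and 3074 of 14636 features. Without transgenic array 1 only Timp4 among the members passed, and 499 features. Without transgenic array 3 or wild type array 1, 3 members passed in each fit, and 1206 and 1918 features. Without wild type array 3, 11 members and 2083 features passed. Wild type array 2 and transgenic array 1 had the highest and the lowest lymphocyte marker sums. With both left out 1 member, Timp4, and 347 of 14118 features passed. With the background level subtracted no member and 17 of 15080 features passed. In that limma fit 15 members and 4073 features had an unadjusted p under 0.05. The adjusted p of the 6 genes ranged upwards from 0.0900.

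**Figure D1:**
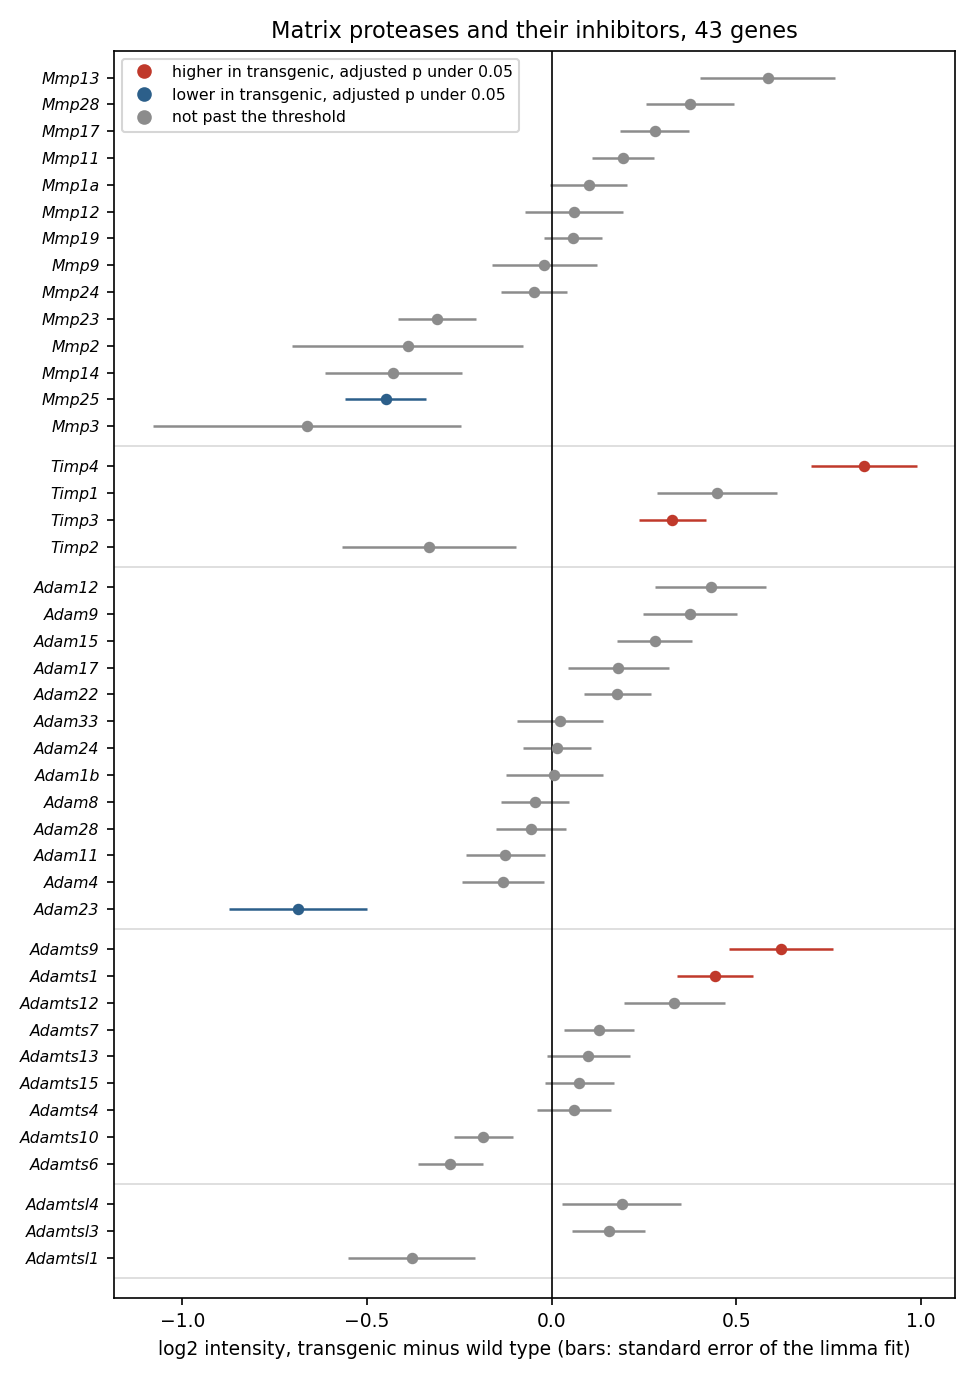
Log2 intensity difference, transgenic minus wild type, for the 43 measured members grouped by family; points are limma estimates, bars are their standard errors, and colour marks the adjusted p threshold. The 4 genes called higher lie among the Timp and Adamts genes and the 2 called lower are Mmp25 and Adam23.

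Among the inhibitors, Timp4 had the largest difference and is a TIMP known for its high levels in adipose tissue and heart. Timp4 read 1206, 930.1 and 923 in transgenic tissue and 562, 486 and 653 in wild type tissue. The lowest transgenic reading exceeded the highest wild type reading, and the means were 1019.7 ± 162 and 567 ± 83.5 (SD, n = 3 each). The 1.80-fold rise passed the test (log2 0.85, SE 0.14, limma adjusted p = 0.0159). It did not pass without transgenic array 2 (adjusted p = 0.0529) or without wild type array 2 (adjusted p = 0.0502). The adipocyte marker sums given above were higher in the same arrays, and their part in the result was not tested.

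Timp3, a matrix-bound inhibitor that also acts on ADAM and ADAMTS proteases, was read by the brightest Timp probe. It read 2093, 1922 and 1953 in transgenic tissue and 1677, 1456 and 1631 in wild type tissue, without overlap. The rise was 1.25-fold (log2 0.33, SE 0.090, limma adjusted p = 0.0472), and it did not pass in 5 of 6 fits that left out an array. Of its 2 dimmer probes, 1 rose by 0.49 on the log2 scale (adjusted p = 0.0202 in a limma fit of every probe) and the other differed by 0.22 (adjusted p = 0.123).

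Timp1, an inducible inhibitor, read 165, 145 and 111 in transgenic tissue and 98.6, 88.6 and 119 in wild type tissue. Transgenic array 3 lay below wild type array 3, so the groups overlapped, and the difference did not pass (log2 0.45, SE 0.16, limma adjusted p = 0.103). Without transgenic array 3 it was 0.61 and passed (adjusted p = 0.0477). In the other fits that left out an array it did not pass and was as low as 0.32. Timp2, which inhibits MMPs and also takes part in the activation of MMP2, read 1676, 1189 and 1513 in transgenic tissue and 2457, 1974 and 1241 in wild type tissue. Its groups overlapped, since wild type array 3 was lower than transgenic arrays 1 and 3, and the difference did not pass (log2 -0.33, SE 0.24, limma adjusted p = 0.379).

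Timp1, Timp3 and Timp4 each lie inside a synapsin gene, a family that encodes vesicle proteins of nerve terminals. In the RefSeq annotation of GRCm38.p6, Timp1 lies within Syn1 on chromosome X, Timp3 within Syn3 on chromosome 10 and Timp4 within Syn2 on chromosome 6, and Timp2 lies within no other protein-coding gene. Syn2 read 232, 167 and 137 in transgenic tissue and 111, 79.9 and 91.2 in wild type tissue. It did not overlap between groups and rose together with Timp4 (log2 0.90, SE 0.19, limma adjusted p = 0.0242). Syn3 differed by 0.082 (SE 0.094, adjusted p = 0.6), and Syn1 was not among the features tested. Timp4 lies on the minus strand and Syn2 on the plus strand, and Timp1 lies on the plus strand and Syn1 on the minus strand. Whether the Syn2 probe can also read Timp4 transcripts was not tested.

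The 250 bases before the start of Timp4 and Timp3, the inhibitors that rose, are shown 5′ to 3′ to place them beside the promoters of the proteases. All promoter sequences are from RefSeq, build GRCm38.p6, and 26 of the 43 measured members had an entry. The Timp4 stretch is chr6:115252206-115252455, minus strand, and the Timp3 stretch is chr10:86300162-86300411, plus strand. Capitals mark letters matching AP-1 (TGANTCA, bound by Fos and Jun proteins), a TATA element (TATAAA) or a GC box (GGGCGG), on either strand, and matches shown share no letters.
Timp4: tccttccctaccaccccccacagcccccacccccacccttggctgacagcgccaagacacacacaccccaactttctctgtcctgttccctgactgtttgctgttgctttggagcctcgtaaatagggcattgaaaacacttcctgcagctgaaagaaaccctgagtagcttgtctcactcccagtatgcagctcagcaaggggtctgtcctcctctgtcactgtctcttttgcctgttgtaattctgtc
Timp3: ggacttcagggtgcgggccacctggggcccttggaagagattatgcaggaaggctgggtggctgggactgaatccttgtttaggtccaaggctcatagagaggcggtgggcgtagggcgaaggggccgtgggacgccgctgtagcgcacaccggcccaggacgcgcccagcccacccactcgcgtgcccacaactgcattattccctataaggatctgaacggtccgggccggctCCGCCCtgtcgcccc
Of all 27025 promoters of the same length, 6.87% held the AP-1 letters, 13.0% the TATA letters and 32.9% the GC box letters. Among the 26 members these were held by 3, 4 and 15. Timp4 held none of them and Timp3 held a GC box on the other strand at position -15. A match is a description of letters, and no match says only that the letters are not in this window.

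The ADAMTS family held the other 2 rises. Adamts9, a proteoglycan-cleaving enzyme that also restrains vessel growth, read 788, 809 and 759.7 in transgenic tissue and 481, 429.9 and 643 in wild type tissue. Every transgenic array was above every wild type array, and the 1.54-fold rise passed (log2 0.62, SE 0.14, limma adjusted p = 0.0280). A second probe rose as well, by 0.51 (adjusted p = 0.0348 in the fit of every probe). Adamts1, which cuts the proteoglycans versican and aggrecan, read 132, 144 and 130.2 in transgenic tissue and 97.9, 90.3 and 112 in wild type tissue, again without overlap. Its 1.36-fold rise passed (log2 0.44, SE 0.10, limma adjusted p = 0.0291). A dim second probe of Adamts1 differed by 0.043, and with the kept probes averaged the gene did not pass (adjusted p = 0.123). Both genes failed the test in 5 of 6 fits that left out an array. Endothelial markers, measured for 6 of 6 genes, summed to 4062 to 4653 in transgenic tissue and 3066 to 4448 in wild type tissue, and 1 of them, Cdh5, rose. Their part in the Adamts differences was not tested.

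Adamts12, read by the brightest Adamts probe, gave 821, 785 and 717 in transgenic tissue and 683, 494 and 687 in wild type tissue. It did not overlap between groups but did not pass (log2 0.33, SE 0.14, limma adjusted p = 0.139). Adamts4, an aggrecan-cleaving enzyme, read 71.1, 66.0 and 59.5 in transgenic tissue and 68.1, 58.9 and 61.2 in wild type tissue, with overlap (log2 0.061, SE 0.10, adjusted p = 0.724). The others were dim, with 6-array means between 58.6 and 71.7, and their differences ran from -0.27 for Adamts6 to 0.13 for Adamts7. Adamts6 and Adamts10 read lower on every transgenic array without passing (adjusted p = 0.0754 and 0.159). Of the ADAMTS-like genes, Adamtsl4 read 232, 177 and 153 in transgenic tissue and 182, 166 and 140 in wild type tissue, with overlap (log2 0.19, SE 0.16, adjusted p = 0.466). Adamtsl3 read 90.8, 93.5 and 109 in transgenic tissue and 84.2, 84.4 and 94.0 in wild type tissue, also with overlap (log2 0.15, SE 0.10, adjusted p = 0.330). Adamtsl1 differed by -0.38 (SE 0.17, adjusted p = 0.174).

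The promoters of both ADAMTS genes that rose are shown for the same comparison, Adamts9 at chr6:92943535-92943784, minus strand, and Adamts1 at chr16:85803114-85803363, minus strand.
Adamts9: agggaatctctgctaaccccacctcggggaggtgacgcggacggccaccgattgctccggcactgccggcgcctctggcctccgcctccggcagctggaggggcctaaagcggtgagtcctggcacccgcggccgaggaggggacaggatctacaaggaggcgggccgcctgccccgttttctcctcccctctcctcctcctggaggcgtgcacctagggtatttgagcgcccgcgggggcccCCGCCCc
Adamts1: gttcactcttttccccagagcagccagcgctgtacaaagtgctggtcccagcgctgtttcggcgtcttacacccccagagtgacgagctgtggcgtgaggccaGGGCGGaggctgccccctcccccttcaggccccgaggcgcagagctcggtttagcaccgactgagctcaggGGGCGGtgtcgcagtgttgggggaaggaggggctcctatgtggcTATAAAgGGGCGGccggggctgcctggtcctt
Adamts9 held a GC box on the other strand at position -7. Adamts1 held a TATA element at position -32 and 3 GC boxes between positions -147 and -25.

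**Figure D2:**
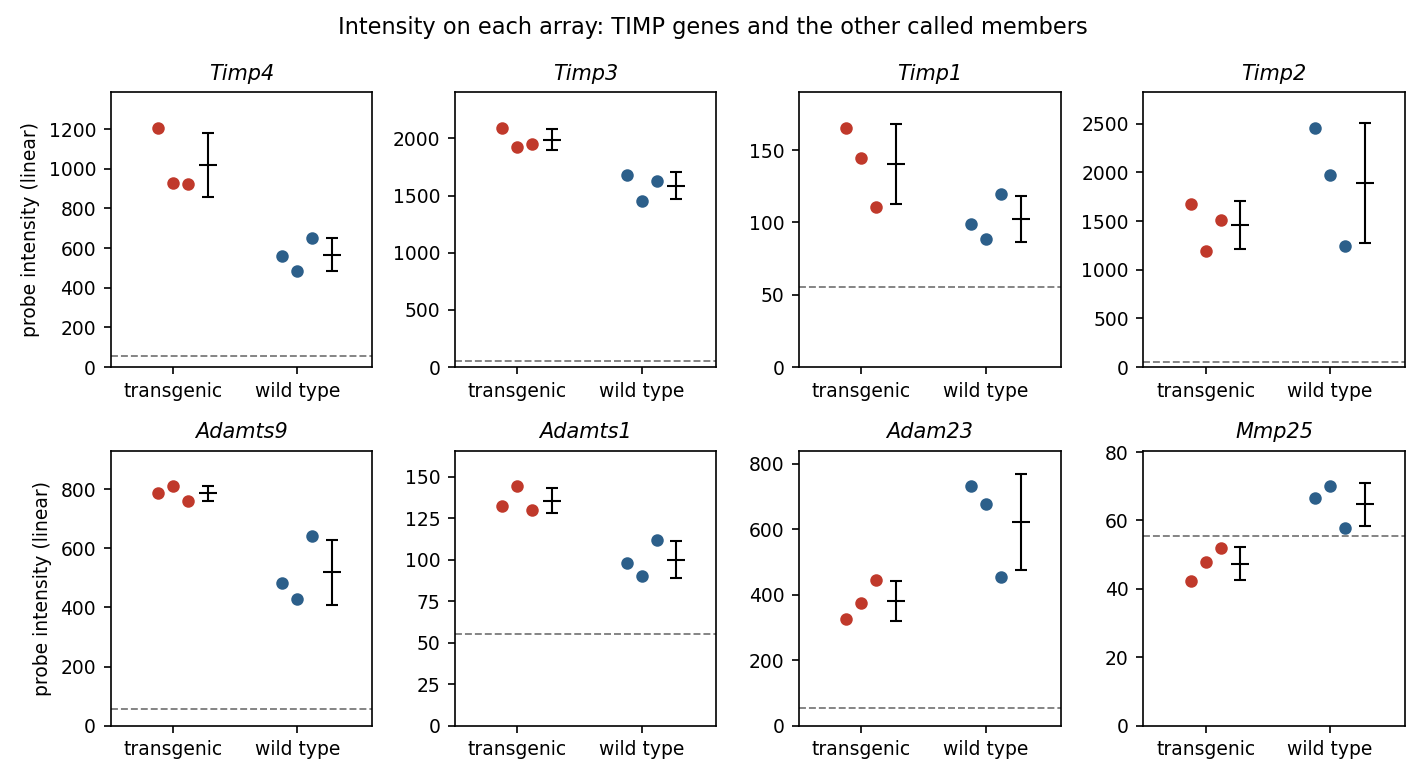
Probe intensity (linear scale) on each array of the 4 Timp genes and the other 4 members past the threshold, transgenic arrays left and wild type arrays right in each panel; bars give the mean ± SD of 3 arrays and the dashed line is the background threshold of 55.4. The groups overlap for Timp1 and Timp2 and do not overlap in the other 6 panels, and for Mmp25 all 3 transgenic arrays lie under the threshold.

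In the ADAM family Adam23 fell. Adam23 encodes a protein without protease activity, known from neurons as a receptor of secreted LGI proteins. It read 325, 374 and 444 in transgenic tissue and 731, 677 and 454 in wild type tissue. The groups did not overlap, but transgenic array 3 and wild type array 3 lay close together, and the 1.61-fold fall passed narrowly (log2 -0.69, SE 0.19, limma adjusted p = 0.0459). It did not pass in 5 of 6 fits that left out an array, or with no filter on dim probes (adjusted p = 0.0503). Schwann cell markers were measured for 2 of 5 genes, with sums of 527 to 567 in transgenic tissue and 663 to 768 in wild type tissue, and S100b was near background. Of the pair, Mbp fell (log2 -0.46, limma adjusted p = 0.0218) and Sox10 differed by -0.0052 (adjusted p = 0.976). Their part in the fall of Adam23, like that of the lymphocyte markers given above, was not tested.

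Adam17, the sheddase that releases TNF from the cell surface, read 693, 661 and 535 in transgenic tissue and 479, 550.5 and 638 in wild type tissue, with overlap (log2 0.18, SE 0.14, limma adjusted p = 0.410). Adam15, read by the brightest Adam probe, gave 1190, 1072 and 1024 in transgenic tissue and 879.7, 832 and 997 in wild type tissue. It did not overlap and did not pass (log2 0.28, SE 0.10, adjusted p = 0.102). Adam12 differed by 0.43 (adjusted p = 0.0907), and Adam9 by 0.37 (adjusted p = 0.0841). The other 8 measured ADAM genes were dim, with 6-array means of 53.0 to 70.5, and differed by -0.13 to 0.18. Adam10, the sheddase of Notch and many adhesion proteins, was not above background on any array, with intensities of 49.7 to 54.9 at its brightest probe.

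Among the matrix metalloproteinases, the collagen- and gelatin-cleaving enzymes of stroma varied between arrays of the same group. Mmp2, the gelatinase of stromal cells, read 1225, 975 and 1667 in transgenic tissue and 2390, 1905 and 984 in wild type tissue. Mmp14, the membrane enzyme that activates pro-MMP2, read 459.7, 447 and 629.7 in transgenic tissue and 823, 723 and 529 in wild type tissue. Mmp3, a stromelysin, read 92.5, 81.1 and 170.1 in transgenic tissue and 282.6, 204 and 88.2 in wild type tissue. All 3 genes overlapped between groups, and none passed in limma (log2 -0.39, SE 0.31, adjusted p = 0.443 for Mmp2; -0.43, SE 0.19, adjusted p = 0.156 for Mmp14; -0.66, SE 0.42, adjusted p = 0.321 for Mmp3), although Mmp14 had an unadjusted p of 0.0476. On all of them wild type arrays 1 and 2 and transgenic array 3 were the high arrays. Without wild type array 3, Mmp3 differed by -1.14 and Mmp14 by -0.61, and both passed (adjusted p = 0.0471 for each). Neither passed in the other fits that left out an array, where the differences shrank to as little as -0.30 for Mmp3 and -0.29 for Mmp14.

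Fibroblast and progenitor markers showed the same arrangement of arrays. Their summed intensity over 7 of 8 genes was 9843, 7990 and 11914 in transgenic tissue and 14756, 11657 and 7601 in wild type tissue, with 1 gene, Dpp4, past the threshold and lower. Timp2 had its highest readings on wild type arrays 1 and 2 and its lowest on transgenic array 2 and wild type array 3. The part of these markers in the differences of Mmp2, Mmp3, Mmp14 and Timp2 was not tested.

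**Figure D3:**
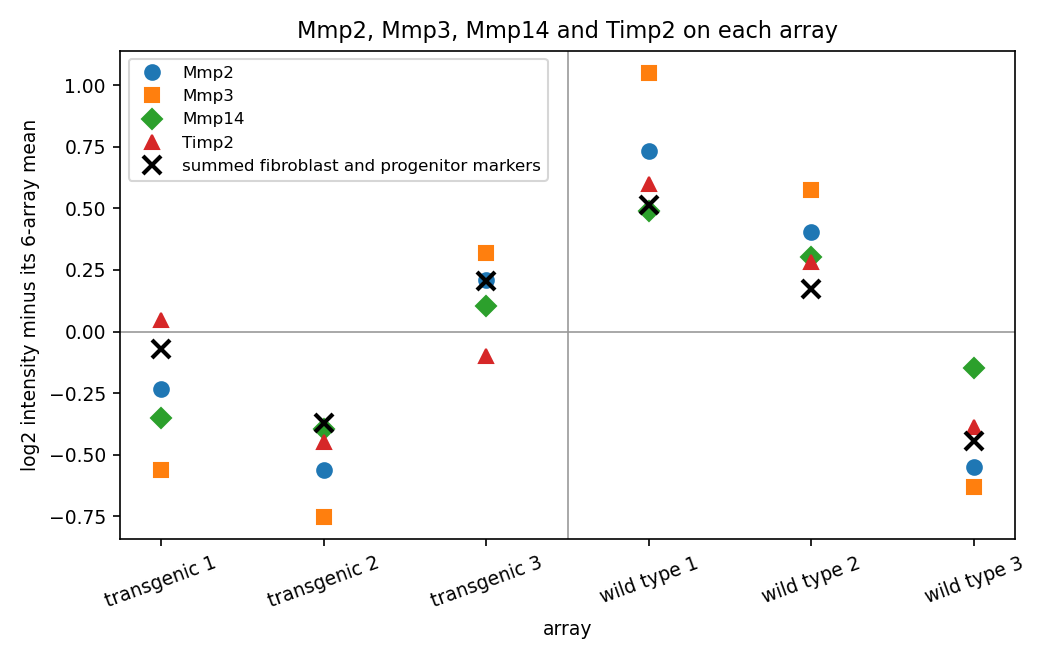
Log2 intensity of Mmp2, Mmp3, Mmp14 and Timp2 and of the summed fibroblast and progenitor markers (crosses), each as deviation from its 6-array mean, on each array with transgenic arrays left of wild type arrays. Wild type arrays 1 and 2 are high and transgenic array 2 and wild type array 3 are low in these genes and in the marker sum.

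Mmp25, a membrane-anchored leukocyte enzyme, read 42.4, 47.7 and 52.0 in transgenic tissue and 66.4, 70.0 and 57.7 in wild type tissue, with means of 47.4 in transgenic tissue and 64.7 in wild type tissue. No transgenic array was above background, and the gene entered the tests through the wild type arrays only, so a difference was fixed by the filter. It was at least 1.16-fold lower in transgenic tissue, taking the background threshold as the level on each transgenic array and the mean of the wild type log2 values. The fit's adjusted p was 0.0355 in limma and supports nothing beyond that bound. Neutrophil markers were measured for 6 of 7 genes and summed to 462 to 639 in transgenic tissue and 441 to 514 in wild type tissue, with none past the threshold in limma and a list median of -0.00029. Of the 3 with an unadjusted p under 0.05, S100a8 differed by 0.75, which made up most of the difference in the sum, and Elane by 0.35. The third, Cxcr2, differed by -0.30, but no transgenic array was above background. It was kept through the wild type arrays only, so its fall was fixed by the filter. The part of the neutrophil markers and of the lymphocyte markers in the difference of Mmp25 was not tested.

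The other MMPs did not pass. Mmp9, the gelatinase of leukocytes, read 188, 161 and 188 in transgenic tissue and 226, 158 and 166 in wild type tissue (log2 -0.019, SE 0.14, limma adjusted p = 0.942), and its sign turned positive in 3 alternative fits. Mmp24 read 639, 585 and 572 in transgenic tissue and 655, 619 and 583 in wild type tissue, with overlap (log2 -0.048, SE 0.088, adjusted p = 0.757). A dimmer probe of Mmp24 differed by 0.31 without overlap (adjusted p = 0.0941 in the limma fit of every probe). A further kept probe differed by -0.012 (adjusted p = 0.947 in that fit). Mmp13, an interstitial collagenase, read 105, 102 and 90.0 in transgenic tissue and 63.4, 51.0 and 88.9 in wild type tissue, without overlap (log2 0.59, SE 0.18, adjusted p = 0.0679). Without wild type array 3 it differed by 0.80 and passed (adjusted p = 0.0139). In the other fits that left out an array it did not pass and was as low as 0.40. A dimmer second probe of Mmp13 differed by 0.11, with overlap (adjusted p = 0.415 in the limma fit of every probe). Mmp28 differed by 0.38 (adjusted p = 0.0713), Mmp17 by 0.28 (adjusted p = 0.0839) and Mmp11 by 0.19 (adjusted p = 0.161), each with all transgenic arrays above. Mmp23 was lower on every transgenic array (log2 -0.31, adjusted p = 0.0869). Mmp1a, Mmp12 and Mmp19 differed by 0.059 to 0.10.

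A cluster of 10 Mmp genes sits on chromosome 9 with no other protein-coding gene between them in RefSeq GRCm38.p6, in the order Mmp13, Mmp12, Mmp1b, Mmp3, Mmp1a, Mmp10, Mmp8, Mmp27, Mmp20 and Mmp7. Of these, 4 were measured (Mmp13, Mmp12, Mmp3 and Mmp1a), 5 were not above background, and Mmp27 was not analysed here. Within the cluster Mmp13 and Mmp3 had differences of opposite sign, neither past the threshold. Both genes were singled out after their values were seen. Their promoters are shown, Mmp13 at chr9:7272264-7272513, plus strand, and Mmp3 at chr9:7445572-7445821, plus strand, and both hold the AP-1 letters.
Mmp13: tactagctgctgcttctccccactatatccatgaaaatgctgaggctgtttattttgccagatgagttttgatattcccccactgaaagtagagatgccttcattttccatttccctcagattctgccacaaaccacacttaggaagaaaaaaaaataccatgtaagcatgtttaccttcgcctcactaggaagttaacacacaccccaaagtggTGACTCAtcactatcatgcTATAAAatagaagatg
Mmp3: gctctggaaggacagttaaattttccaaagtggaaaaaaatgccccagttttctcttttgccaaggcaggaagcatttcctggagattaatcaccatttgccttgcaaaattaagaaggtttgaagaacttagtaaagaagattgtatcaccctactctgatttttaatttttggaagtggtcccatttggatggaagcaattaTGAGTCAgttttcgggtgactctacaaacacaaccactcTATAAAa
The AP-1 letters start at position -35 in Mmp13 and -46 in Mmp3, and the TATA letters at -16 and -7. Mmp1a, the only other of the 26 members with the AP-1 letters, holds them at -73.

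**Figure D4:**
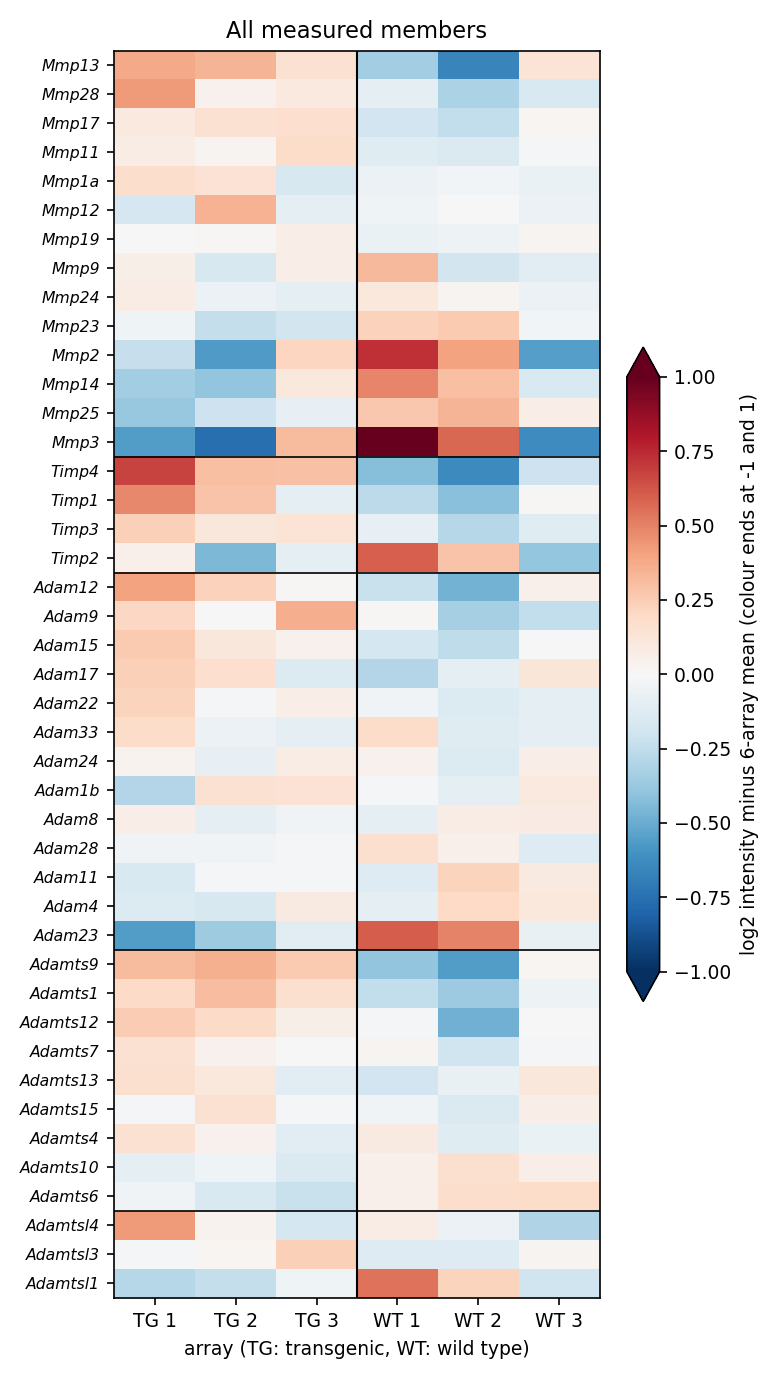
Colour gives the deviation of log2 intensity from the 6-array mean for the 43 measured members (rows, grouped by family) on each array (columns, transgenic arrays left of wild type arrays). The Timp4 and Adamts9 rows are high on all 3 transgenic arrays, and the Mmp2, Mmp3 and Mmp14 rows are high on wild type arrays 1 and 2.

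The 35 members not above background on 3 arrays had intensities of 37.9 to 64.0 at the brightest probe of each. They were Mmp1b, Mmp7, Mmp8, Mmp10, Mmp16, Mmp20 and Mmp21; Adam2, Adam3, Adam5, Adam6a, Adam6b, Adam7, Adam10, Adam18, Adam20, Adam21, Adam25, Adam26a, Adam26b, Adam29, Adam30, Adam32, Adam34, Adam34l and Adam39; Adamts3, Adamts8, Adamts14, Adamts16, Adamts17, Adamts18, Adamts19 and Adamts20; and Adamtsl2. Of these, 5 were above background on 2 arrays, 8 on 1 and 22 on none. Adam28 lay just inside the rule, with its third-brightest array at 55.8, and Adam32 just outside, with 55.38 against a threshold of 55.42. Among members with a 6-array mean under 100, 1 of 24 was called, where 6.77% of all such features were. That gene was Mmp25, whose difference was fixed by the filter. Among those at 100 or more, 5 of 19 were called, where 16.8% of such features were.

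Genes that regulate or share the work of these proteases were examined in lists. Of the ADAM partners, 7 of 8 were measured, 1 rose and 2 fell (median log2 0.11). Rhbdf1, an inactive rhomboid protein needed for ADAM17 maturation, averaged 1805 ± 150.03 in transgenic tissue and 1356 ± 157 in wild type tissue (log2 0.42, limma adjusted p = 0.0419). Tspan33 and Tspan10, tetraspanins of the group that binds ADAM10, fell by 0.50 (adjusted p = 0.0197) and 0.74 (adjusted p = 0.0323) on the log2 scale. The other measured tetraspanins of the list differed upwards without passing. These were Tspan17 (log2 0.27, limma adjusted p = 0.0728), Tspan15 (0.26, adjusted p = 0.149) and Tspan14 (0.11, adjusted p = 0.392). The part of the lymphocyte markers in the falls of Tspan33 and Tspan10 was not tested. Of the other metalloproteinase inhibitors and regulators, 8 of 11 were measured and 1 rose (median 0.12), Sparc, a collagen-binding matricellular protein, at 12126 ± 767 in transgenic tissue and 9819.9 ± 249 in wild type tissue (log2 0.30, limma adjusted p = 0.0492). The other bright gene of that list, the cystatin Cst3, did not pass (log2 0.30, adjusted p = 0.0939).

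Pcolce2, an enhancer of procollagen C-proteinases, rose 1.09 on the log2 scale (SE 0.21, limma adjusted p = 0.0186), at 1033 ± 221 in transgenic tissue and 487 ± 122 in wild type tissue, and was the only 1 of 3 measured astacin and procollagen-processing genes to pass; Pcolce, a related enhancer, differed by -0.17 (adjusted p = 0.490). Of 21 measured interstitial and basement membrane substrates 1 rose, the basement membrane protein Nid2 (log2 0.43, SE 0.11, adjusted p = 0.0367), and the list's median was -0.020. Its brightest probes read the basement membrane collagen genes Col4a1 and Col4a2, which differed by -0.085 (adjusted p = 0.706) and 0.11 (adjusted p = 0.563). Of 6 measured proteoglycan-list genes 1 rose, Comp, a cartilage matrix protein cut by ADAMTS7 and ADAMTS12 (log2 1.98, SE 0.41, adjusted p = 0.0220), with 627, 418 and 234 in transgenic tissue and 80.1, 69.9 and 178 in wild type tissue. The brightest probes of that list read the small proteoglycans Dcn, which differed by -0.074 (adjusted p = 0.860), and Bgn, which differed by 0.69 and did not pass (adjusted p = 0.0752). The plasminogen system gave no call in limma among 4 of 8 measured genes and none with an unadjusted p under 0.05. Its brightest genes were Plau, at 248 ± 27.0 in transgenic tissue and 270.0 ± 66.0 in wild type tissue, and Plat, at 214 ± 36.7 in transgenic tissue and 224 ± 74.4 in wild type tissue. Of the lysyl oxidases, which crosslink collagen, none of 3 passed in limma or had an unadjusted p under 0.05, with Loxl1 at -0.37 and Lox at 0.13.

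In the remaining protease lists only falls passed the test, where 8.19% of all features fell and 5.04% rose. Of 13 measured cathepsins 2 fell, Ctsw, a cathepsin of cytotoxic lymphocytes (log2 -1.29, SE 0.31, limma adjusted p = 0.0344), and Ctse, an aspartic protease (log2 -0.87, SE 0.15, adjusted p = 0.0158), and the list's median was -0.085. Of 3 measured cystatins Cst7, a cystatin of leukocytes, fell (log2 -0.61, SE 0.12, adjusted p = 0.0197), while the bright Cst3 differed as given above and Cstb by -0.073 (adjusted p = 0.730). Of 9 measured serine and other extracellular proteases 2 fell, Dpp4, a dipeptidyl peptidase of T cells and adipose progenitors (log2 -0.92, SE 0.25, adjusted p = 0.0445), and Hpse, heparanase (log2 -0.56, SE 0.10, adjusted p = 0.0183), while the list's median was 0.10. Without passing, Htra3 (log2 0.71), Ctsa (0.36), Ctsl (0.33) and Ctsb (0.24) were higher on every transgenic array, and Ctsh (-0.44) was lower. The adjusted p of these genes in limma ran from 0.0580 to 0.130. The lymphocyte markers given above fell in the same arrays, and their part in these differences was not tested.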

How the data were processed

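RNA of subcutaneous adipose tissue in 3 mitoNEET transgenic and 3 wild type samples was labelled as biotinylated cRNA and hybridised to Illumina bead arrays, per the labels' protocols. The deposited values are intensities on a linear scale; they are quantile-normalized (sorted values of the 6 arrays differ by at most 0.157) and not background-subtracted (lowest value 32.4). No source used here gives the software. A scanner table was not used, since its 24 per-array columns are named by chip and position and match no sample's label; detection p-values and chips were therefore not used, and whether chips differed between groups is not known.

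Log2 intensity was analysed. The mode of the pooled log2 values, 47.8 in intensity, was taken as background. The threshold of 55.4 lay above it by 1.6 times the spread of values under the mode (0.134, log2). Of 45281 probes 22218 (49.1%) exceeded it on at least 3 arrays. In the platform annotation 34885 probes have 1 gene, 18 have several and 10378 have none. Tests covered 11549 named genes and 3531 probes without a single gene, with each gene given by its probe of highest mean. All 78 member identifiers were found in a RefSeq gene table. Transgenic and wild type arrays were compared without covariates by lmFit and eBayes of limma 3.58.1 (R 4.3.3), with Benjamini-Hochberg adjustment over all 15080 features and a threshold of 0.05; the script was tested on simulated data. Since background was not removed, dim genes show understated folds, and precision is limited by having 6 arrays. Members and lists were chosen with earlier results of these data known. Given per array were all members past the threshold, Timp1 to Timp4, Mmp2, Mmp9, Mmp14, Adam17, Adamts1, Adamts4 and the 2 brightest members of each family; Mmp3, Mmp13 and Syn2 were added after their values were seen. Of each list, the genes past the threshold were named, and where fewer than 2 passed also the 2 brightest. Alternatives covered an offset of 16, background subtraction, centring, other filters and thresholds, other ways to choose or average probes, a trended robust variance, array quality weights, blocking on replicate number and leaving out arrays.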

Additional observations from a re-analysis of the deposited data

How the results depend on the processing

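Of 353 gene and setting combinations over 20 named genes, 306 kept the direction and the side of the threshold, 37 lost the call, 5 gained it and 5 turned direction. With a background level subtracted, 0 members were called in either direction and 17 features in all. In that limma fit 15 members and 4073 of 15080 features had an unadjusted p under 0.05. The family medians were then 0.55 for Timp, 0.17 for Adam and 0.36 for Adamts. At an adjusted p under 0.1, 13 members were called, 9 higher and 4 lower, and 3442 features. The count called lower was 1 with a filter on all 6 arrays, with no filter, with a stricter threshold and with the replicate block, and 4 with array weights; with no filter the call lost was that of Adam23 (adjusted p = 0.0503). Leaving out an array gave 0 to 11 members called, 0 to 6 higher and 0 to 5 lower, and 0 to 2083 features; features called were 499 without transgenic array 1, 0 without transgenic array 2 (3599 with an unadjusted p under 0.05) 307 without wild type array 2, and 1206 without transgenic array 3. The Adam median was 0.050 with arrays centred, 0.18 with a filter on all 6 arrays, 0.18 with a stricter threshold and between -0.0016 and 0.071 in fits without an array, where the Adamtsl median lay between 0.024 and 0.18. With wild type array 2 and transgenic array 1 left out together, a setting added after seeing the data, 1 member was called (1 higher, 0 lower) and 347 features, with medians of 0.23 for Timp and 0.089 for Adam, and Adamts4 at -0.044. Mmp9 turned to 0.015 with centring and ranged from -0.12 to 0.14 in fits without an array, turning positive without transgenic array 2 or wild type array 1, and Mmp24 turned to 0.084 with probes averaged. The cause was not tested for any of these. Settings that leave out arrays or change the filter also change the number of arrays or features.

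The groups share replicate numbers, and whether the numbers pair the samples cannot be told from 3 arrays per group. Deviations of same-numbered arrays correlated at 0.412, 0.22 and -0.027. Transgenic arrays 1 and 2 matched the wild type array of their own number best, and transgenic array 3 matched wild type array 2 best. With the replicate block 6 members were called, 5 higher and 1 lower, with Adam23 lost (adjusted p = 0.0553) and Mmp28 gained.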
